A study of Mus musculus with 6 samples.

Results

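The transcripts described here are those of 51 genes that copy chromosomal DNA, in terminally exhausted CD8+ T cells sorted from mouse melanomas after treatment with interleukin-10 (IL-10) or with buffer alone. Members were named by symbol from the replication machinery, and all 51 were among the 15898 genes listed in the deposited count table. Naive Thy1.1+ PMEL cells (the Tg(TcraTcrb)8Rest/J line on a B6.Cg-Thy1a/Cy background), whose transgenic receptor sees a melanocyte antigen, were transferred into mice irradiated with 4 Gy, which were then given B16F10 melanoma cells (strain label C57BL/6). On day 10 all mice also received activated Thy1.2+ PMEL CD8+ cells, and 4 peritumoral injections were begun of either 20 µg of IL-10/Fc, the cytokine fused to an antibody Fc part, or phosphate-buffered saline (PBS). On day 18, 500 Thy1.1+ PD-1+ TIM-3+ CD8+ cells per library were sorted, which gave 2 PBS and 4 IL-10/Fc libraries. Irradiation, both transfers and the tumour were common to the groups, so the comparison is of IL-10/Fc with PBS on top of adoptive T cell therapy.

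Replication starts when the origin recognition complex, Cdc6 and Cdt1 load the Mcm2 to Mcm7 ring onto DNA in G1, a step called licensing that geminin blocks later in the cycle. In S phase the ring is switched on by Cdc45 and the GINS complex, and polymerases, the sliding clamp PCNA and its RFC loader copy both strands while histones are put back behind the fork. Many of these genes are transcribed in late G1 under E2F factors, so in T cells their messenger RNA is widely used as a sign of cycling. Exhausted CD8+ T cells in tumours differ in how much they divide, and the terminally exhausted PD-1+ TIM-3+ subset is known to contain cycling cells.

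Libraries held 26738871 to 36941814 counts on listed genes, at which 3 counts equal 0.0812 to 0.112 CPM (counts scaled to a common library total). The 51 genes took 0.413% and 0.4996% of counts for PBS, beside 0.279%, 0.321%, 0.414% and 0.331% for the IL-10/Fc libraries in replicate order. Values below are CPM scaled by TMM, which corrects for composition, and libraries are always given in replicate order. No label says whether the libraries stem from separate mice, and p-values therefore measure the spread between these libraries, which may be technical. All 9 listed markers of the sorted cells, among them Cd8a, Cd3e, Pdcd1 (PD-1) and Havcr2 (TIM-3), were present in every library. Their sum ran from 6899 to 10777 CPM in PBS and from 12853 to 14519 CPM in IL-10/Fc. By log2 fold change 7 of the 9 were higher and 2 lower, Pdcd1 (-0.64) and Tox (-1.33). Pdcd1 stood at 1578 and 1286 CPM in PBS and at 699, 1112, 994 and 867 CPM in IL-10/Fc, without overlap. Macrophage and monocyte markers summed to 591 and 791 CPM in PBS and to 469, 1030.2, 1824 and 1626 CPM in IL-10/Fc, with 13 of 15 above 0 by log2 fold change and Mrc1 at 0 counts in both PBS libraries. Dendritic cell and MHC class II markers (6 of 7 listed genes measured) summed to 167 and 287 CPM in PBS and to 167, 641 (replicate 2), 1893 and 992 CPM in IL-10/Fc. The defining melanoma markers stayed low, with sums of 0.645 to 9.04 CPM over 4 measured genes.

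The comparison asked how IL-10/Fc changed gene expression in these cells, and here whether the copying machinery moved with it. Most replication genes stood lower in IL-10/Fc, but for most members the groups overlapped. Of the 51 members, 44 had a negative log2 fold change and 7 a positive one, where 50.7% of all 15477 genes tested were negative and 49.3% positive. Their median log2 fold change was -0.37, beside -0.01 over all genes tested, and single members ran from -0.98 (Mcm3) to 0.86 (Pola1). With edgeR's quasi-likelihood test and Benjamini-Hochberg adjustment over all genes, 0 of 51 members passed, where 0.00646% of genes passed as higher and 0% as lower, and the smallest adjusted p among members was 0.193, for Mcm5. At an unadjusted p under 0.05 there were 8 members, 6 lower (5.52% of all genes) and 2 higher (7.2% of all genes). DESeq2 on the same counts called 1 member, Mcm5 as lower (1.51% of genes were called lower and 3.22% higher), and limma-voom called 0.

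The groups did not overlap for 16 members. All IL-10/Fc libraries lay below both PBS libraries for 14 members, 27.5% of the 51, where the same held for 11.5% of all genes tested. These were Mcm3, Mcm5, Mcm6, Mcm7, Orc2, Pola2, Prim2, Pold2, Rfc3, Rpa1, Fen1, Lig1, Rrm1 and Chaf1b, so they came from 8 of the 11 roles. Pola1 and Rfc1 lay above without overlap, 2 members where 12.1% of all genes did so. With scaling by library size only, 20 members lay below without overlap, but so did 19.8% of all genes, and that scaling moved the median of all genes from -0.01 to -0.18. Relative to that median the members lay at -0.36 with TMM and at -0.35 with library size. The sign count rested in part on PBS replicate 2: without it 32 members were negative and 19 positive, and the median was -0.18.

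**Figure D1:**
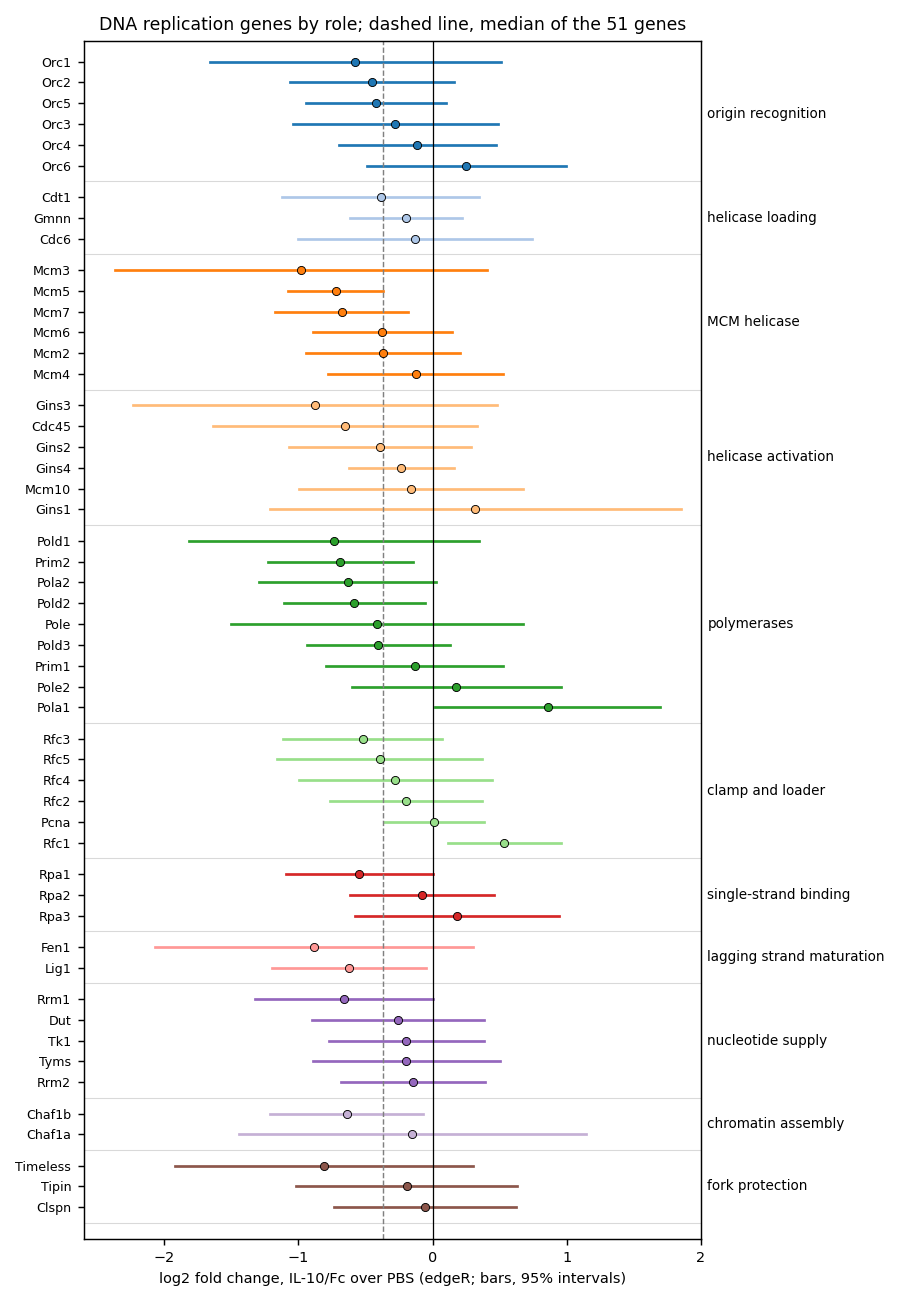
Log2 fold change of IL-10/Fc over PBS for each of the 51 genes, grouped by role; points are edgeR estimates (2 PBS and 4 IL-10/Fc libraries), bars are 95% intervals and the dashed line is the median of the 51. Most points lie left of 0, from -0.98 to 0.86, and 8 of the intervals exclude 0 before any adjustment for the number of genes.

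Differences between libraries of 1 group set how precise these values are. The 95% interval of a member's log2 fold change had a median half-width of 0.66, from 0.36 for Mcm5 to 1.53 for Gins1. For 27 members the interval reached below -1, so a fall to under 50% of the PBS level was within it. Counts per member ran from 28 for Fen1 to 17050 for Dut. In bulk libraries, fewer cells in S phase and less RNA per such cell cannot be told apart.

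The 4 IL-10/Fc libraries differed among themselves. IL-10/Fc replicate 3 held the highest of the IL-10/Fc values for 38 of 51 members (74.5%, beside 24.9% of all genes tested), and replicate 1 held the lowest for 25 members (49.0%, beside 29.2% of all genes). Over all 6 libraries, the lowest value fell in replicate 1 for 22 members and the highest in PBS replicate 2 for 18 members. PBS replicate 2 exceeded PBS replicate 1 for 36 of 51 members, where 49.4% of all genes did. The members' mean log2 CPM stood at 5.40 and 5.65 for PBS, beside 4.97, 5.07, 5.54 and 5.19 for IL-10/Fc, so replicate 3 lay between the PBS libraries. Sums of macrophage and of MHC class II markers were also highest in replicate 3 and lowest in replicate 1 among the IL-10/Fc libraries, and their part in the replication values was not tested. Without replicate 3 the members' median was -0.42 and 24 members lay below without overlap (15.2% of all genes), and without replicate 1 the median was -0.25. Mki67 and Top2a, general marks of cycling cells and not members, had positive log2 fold changes of 0.11 and 0.30 (SE 0.33 and 0.18) and did not pass: Mki67 was at 48.4 and 43.2 CPM in PBS and at 38.1, 34.5, 75.6 and 49.8 CPM in IL-10/Fc, with its highest value again in replicate 3.

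**Figure D2:**
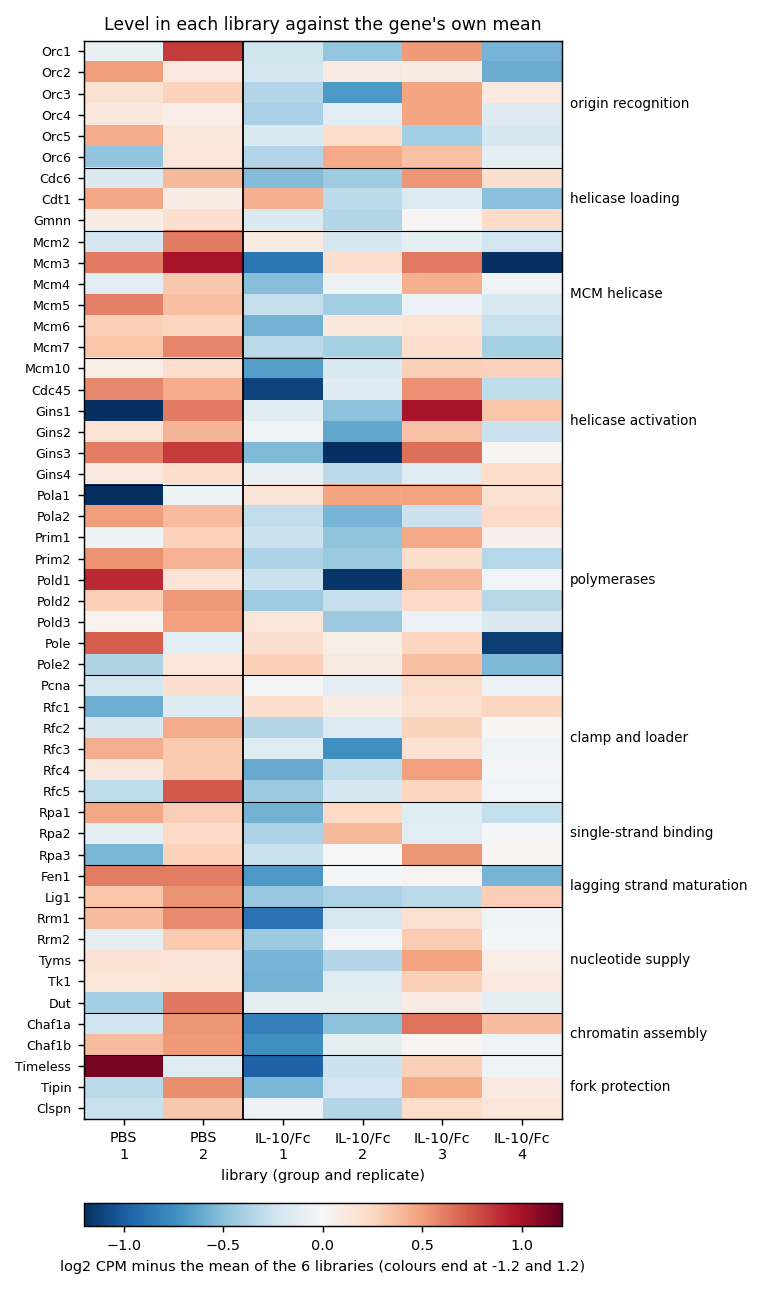
Level of each of the 51 genes in each library as log2 CPM minus the gene's own mean over the 6 libraries, with red above and blue below that mean; rows are ordered by role and columns are libraries. IL-10/Fc replicate 3 resembles the PBS columns, with the highest IL-10/Fc value for 38 members, and replicate 1 holds the lowest of the 6 values for 22.

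The origin recognition complex, Orc1 to Orc6, marks the sites where replication can start. The 6 members had a median of -0.35 on the log2 scale, 5 negative and 1 positive, and none passed. That median was -0.18 without PBS replicate 2. Orc2, a core subunit that stays on chromatin, stood at 35.2 and 27 CPM in PBS and at 21.3, 26.7, 26.4 and 16.4 CPM in IL-10/Fc, below PBS in all 4 libraries but with replicate 2 within 0.5 CPM of the nearer PBS library. Orc5, a subunit of the AAA+ family that binds ATP, was at 44 and 35.6 CPM in PBS and at 28.6, 37.8, 24.4 and 28.1 CPM in IL-10/Fc, so replicate 2 lay between the PBS values. Their log2 fold changes were -0.45 (SE 0.25, 95% interval -1.06 to 0.16) and -0.42 (SE 0.21, 95% interval -0.94 to 0.10). Orc4 had the most reads of the complex, at 98.6 and 95.6 CPM in PBS and at 69.2, 82.4, 126 and 81.6 CPM in IL-10/Fc, and its replicate 3 exceeded both PBS libraries. Orc6 alone was positive, at 0.25, with libraries that overlapped from 20.0 to 38.1 CPM. Orc1, the subunit whose transcript follows the cell cycle most closely, was scarce, at 4.45 and 8.43 CPM in PBS and at 3.99, 3.42, 6.7 and 3.19 CPM in IL-10/Fc, and Orc3 was at 76.9 and 82.2 CPM in PBS and at 53.1, 42.1, 94.1 and 73.4 CPM in IL-10/Fc.

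Helicase loading needs Cdc6 and Cdt1, while geminin (Gmnn) binds Cdt1 and stops relicensing. All 3 were negative with a median of -0.20, and the groups overlapped for each. The median was -0.35 without IL-10/Fc replicate 3 and -0.11 without IL-10/Fc replicate 2. Cdt1 stood at 24.2 and 18.7 CPM in PBS and at 23.6, 14.1, 15.6 and 12.4 CPM in IL-10/Fc, where replicate 1 lay between the PBS libraries. The log2 fold change of Cdt1 was -0.39 (SE 0.30, 95% interval -1.12 to 0.35). Gmnn was more abundant, at 104 and 112 CPM in PBS and at 86.5, 76.4, 98.5 and 114 CPM in IL-10/Fc, with a log2 fold change of -0.20 (SE 0.17, 95% interval -0.62 to 0.22). Cdc6 was at 18.9 and 27.8 CPM in PBS and at 14.8, 15.7, 30.6 and 24.3 CPM in IL-10/Fc, and the highest and the lowest values of the 6 were both in IL-10/Fc.

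The MCM ring, the motor that unwinds DNA, was the role with the most members below PBS without overlap. Of its 6 members 4 lay below PBS without overlap, where 11.5% of all genes did. Of the 9 polymerase genes 3 lay below and 1 above without overlap. Of the 2 genes of lagging strand maturation, 2 lay below. All 6 were negative, where 50.7% of all genes were, with a median of -0.53. With single libraries left out, the log2 fold changes of Mcm2 and Mcm4 reached 0.10 and 0.12. Mcm5 (chromosome 8, 75109569 to 75128439), in GRCm38 as are all positions here, stood at 83.6 and 70.5 CPM in PBS and at 45.1, 41, 52.2 and 48.4 CPM in IL-10/Fc. Every IL-10/Fc value was under the lower PBS value, and the spread within each group was small. The log2 fold change of Mcm5 was -0.72 (SE 0.15, 95% interval -1.08 to -0.37), which misses the threshold in edgeR's quasi-likelihood test (adjusted p = 0.193 over all genes). In the authors' deposited table Mcm5 had a log2 fold change of -0.72 and an adjusted p of 0.00204, and it was the 1 member called there, where 1.72% of listed genes were called lower and 3.57% higher. Leaving out single libraries kept the log2 fold change of Mcm5 between -0.84 and -0.60. Mcm7 (chromosome 5, 138164583 to 138172422) was at 106 and 126 CPM in PBS and at 67.2, 63.6, 96.4 and 63.6 CPM in IL-10/Fc, where replicate 3 came within 10 CPM of the lower PBS library and the other 3 lay within 4 CPM of each other. Its log2 fold change was -0.68 (SE 0.21, 95% interval -1.17 to -0.18) (edgeR's quasi-likelihood test, adjusted p = 0.285).

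Mcm6 was the most abundant subunit by reads, at 363 and 355 CPM in PBS and at 201, 325, 335 and 248 CPM in IL-10/Fc. Both PBS libraries were close together, and the IL-10/Fc libraries ranged widely below them, with a log2 fold change of -0.37 (SE 0.21, 95% interval -0.89 to 0.14). Mcm3 had the widest interval of the ring, at 60.1 and 77.1 CPM in PBS and at 21.3, 44.9, 59.9 and 13.1 CPM in IL-10/Fc, so its large difference of -0.98 came with an SE of 0.57 and replicate 3 reached the lower PBS value to within 0.2 CPM. Mcm2 was at 55.4 and 98.1 CPM in PBS and at 68.8, 55.5, 58.9 and 54.8 CPM in IL-10/Fc, where PBS replicate 2 stood far above the other 5 libraries. For Mcm4 the libraries overlapped in full, at 65.8 and 90.3 CPM in PBS and at 50.6, 68.9, 96.6 and 70.0 CPM in IL-10/Fc, and the interval of its log2 fold change ran from -0.78 to 0.53. The ring holds 1 copy of each subunit, yet per kilobase of exon the transcripts were unequal. Mcm6 had 77 ± 1.15 RPKM in the PBS libraries (SD, n = 2) against 59.4 ± 13.6 RPKM in the IL-10/Fc libraries (SD, n = 4). Mcm2, the lowest per kilobase, had 11 ± 4.34 RPKM in the PBS libraries (SD, n = 2) against 8.55 ± 0.929 RPKM in the IL-10/Fc libraries (SD, n = 4). This order depends on the annotated exon length, 6956 bases for Mcm2 and 3752 for Mcm3. By mean CPM over all libraries Mcm3 was the lowest, at 46.1 against 65.2 for Mcm2.

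Because the MCM genes and several others stood lower together, the 250 bases before the start sites of 4 members were read from RefSeq promoter windows on GRCm38.p6. Mcm5 and Mcm6 are shown as ring subunits that lay below PBS without overlap and held overlapping matches. Pola1 is shown as the member with the largest positive difference, and Mcm2 as a ring subunit with no match. Capitals mark matches to TTTCCCGC, TTTCGCGC, TTTGCCGC or TTTGGCGC, 8-base forms of the E2F site, on either strand, and matches on opposite strands can overlap. The windows were chr8:75109259-75109508 (plus strand), chr1:128359706-128359955 (minus strand), chrX:93632156-93632405 (minus strand) and chr6:88898781-88899030 (minus strand), each printed 5′ to 3′ on its gene's strand.
Mcm5: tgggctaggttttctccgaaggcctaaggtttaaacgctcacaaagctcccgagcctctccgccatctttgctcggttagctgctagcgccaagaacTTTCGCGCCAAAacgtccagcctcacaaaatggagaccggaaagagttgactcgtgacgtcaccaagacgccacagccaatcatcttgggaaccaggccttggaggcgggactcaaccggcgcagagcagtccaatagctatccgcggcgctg
Mcm6: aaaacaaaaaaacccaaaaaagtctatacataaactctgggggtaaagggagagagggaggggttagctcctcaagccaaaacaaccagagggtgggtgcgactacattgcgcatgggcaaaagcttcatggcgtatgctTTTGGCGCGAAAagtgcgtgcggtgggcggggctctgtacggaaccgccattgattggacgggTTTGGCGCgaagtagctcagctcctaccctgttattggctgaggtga
Pola1: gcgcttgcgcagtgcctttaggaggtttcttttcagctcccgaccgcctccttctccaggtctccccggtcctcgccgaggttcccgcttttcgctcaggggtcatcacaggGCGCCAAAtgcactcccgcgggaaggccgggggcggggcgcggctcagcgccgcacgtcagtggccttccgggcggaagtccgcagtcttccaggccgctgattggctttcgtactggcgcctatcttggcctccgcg
Mcm2: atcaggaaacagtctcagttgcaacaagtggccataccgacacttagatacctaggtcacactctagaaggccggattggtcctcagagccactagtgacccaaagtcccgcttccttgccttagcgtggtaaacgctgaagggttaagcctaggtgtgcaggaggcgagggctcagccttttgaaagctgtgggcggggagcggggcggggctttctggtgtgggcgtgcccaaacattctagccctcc
In Mcm5 a pair of overlapping matches on opposite strands began at positions -153 and -149, counted from the start site. Mcm6 held such an overlapping pair at -110 and -106 and another match at -47. Pola1 held 1 match, at -138. In the Mcm2 window none of these letters occurred before the start. Mcm3 and Mcm7 also lay below PBS without overlap and are not shown. Mcm3 held 0 matches before the start and 2 after it, and Mcm7 held 1 before the start, at -165.

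Over the whole window, from 250 bases before to 50 after the start, 42 of the 51 members had an entry in the RefSeq table, and 16 of them (38.1%) held at least 1 match. Among all 27025 genes in the table at least 1 match was found in 2.61%, and among the 9181 tested genes with an entry in 4.83%. With the bases before the start alone, 9 of 42 members (21.4%) and 2.16% of all genes held one. The 16 were Orc1, Orc3, Cdc6, Cdt1, Mcm3, Mcm5, Mcm6, Mcm7, Gins3, Pola1, Pold1, Pold3, Pole2, Rfc3, Lig1 and Clspn. On the log2 scale members with a match had a median of -0.46, and 14 of 16 were negative, and the 26 without one had a median of -0.27, with 22 negative. Pola1 and Pole2 held a match and were positive, while Rrm1 and Chaf1b held none and lay below PBS without overlap. Whether a match bears on the direction was not tested. The 9 members with no entry were Gmnn, Mcm4, Gins1, Gins2, Gins4, Prim2, Pole, Rfc2 and Tipin.

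**Figure D3:**
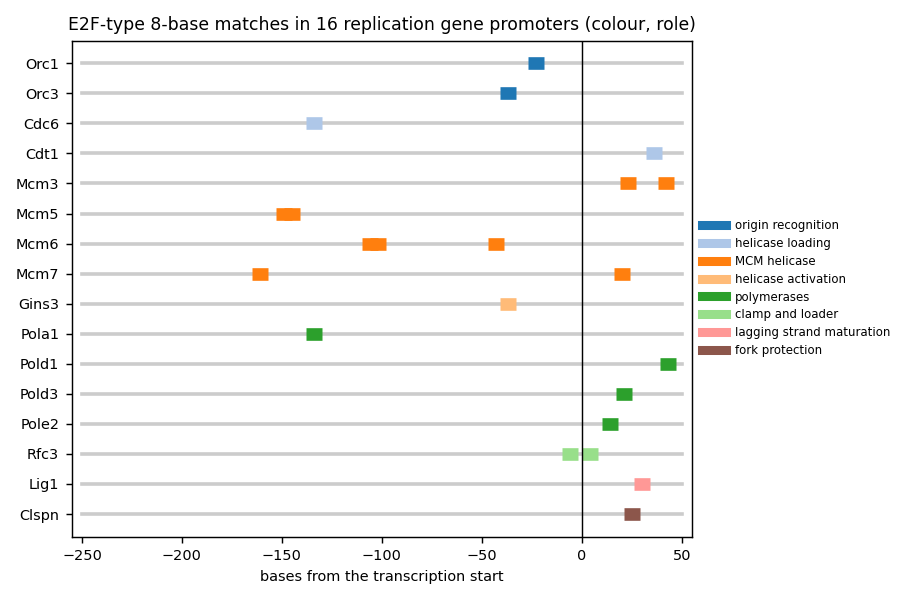
Positions of the E2F-type 8-base matches, in bases from the transcription start, in the 16 replication genes that hold at least 1; grey lines are the windows searched and colours give the role. Matches fall on both sides of the start, and those of Mcm5 and Mcm6 include overlapping pairs at -153 and -110.

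Activation of the ring takes Cdc45, the GINS complex of Gins1 to Gins4, and Mcm10. None of the 6 passed, 5 were negative, and the groups overlapped for every one. Cdc45 stood at 57.8 and 52.9 CPM in PBS and at 18, 34.8, 56.8 and 31.4 CPM in IL-10/Fc, a wide range in which replicate 1 was far under PBS and replicate 3 between the PBS libraries. Its log2 fold change was -0.65 (SE 0.41, 95% interval -1.64 to 0.33). Gins3 was scarcer, at 14.5 and 17.1 CPM in PBS and at 6.57, 3.14, 15 and 9.63 CPM in IL-10/Fc, where replicate 3 lay between the PBS libraries, with a log2 fold change of -0.88 (SE 0.56, 95% interval -2.24 to 0.48). GINS assembles from equal numbers of its 4 subunits. The 95% intervals of their log2 fold changes overlapped. Those of Gins1 (-1.21 to 1.85) and Gins3 are too wide to show whether these subunits differed. Gins4, the most abundant, was at 112 and 120.1 CPM in PBS and at 97.9, 83.1, 93.5 and 121 CPM in IL-10/Fc, and its log2 fold change was -0.23 (SE 0.16, 95% interval -0.63 to 0.16). Gins1 was positive at 0.32, with PBS replicate 1 the lowest of the libraries at 4.21 and 16.1 CPM in PBS and at 9.45, 7.43, 20.7 and 13.2 CPM in IL-10/Fc, and without that library the value was -0.35. Gins2 was at 36.7 ± 4.43 CPM in the PBS libraries (SD, n = 2) against 28 ± 7.98 CPM in the IL-10/Fc libraries (SD, n = 4), and Mcm10, a scarce factor that helps start the helicase, at 7.52 ± 0.453 CPM in the PBS libraries (SD, n = 2) against 6.72 ± 1.93 CPM in the IL-10/Fc libraries (SD, n = 4).

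Of the 9 polymerase genes 7 had a negative and 2 a positive log2 fold change, and none passed. DNA polymerase alpha-primase, which lays down primers, is built of Pola1 (the catalytic chain), Pola2, Prim1 and Prim2. Pola1 (chromosome X, 93304767 to 93632155) stood at 9.65 and 21.8 CPM in PBS and at 25.2, 31.5, 31.7 and 25.8 CPM in IL-10/Fc, so all 4 IL-10/Fc libraries exceeded both PBS libraries, with PBS replicate 1 far the lowest. The log2 fold change of Pola1 was 0.86 (SE 0.35, 95% interval 0.02 to 1.70), the largest positive value of the members (0.39 without PBS replicate 1 and 1.57 without PBS replicate 2), and edgeR's quasi-likelihood test gave an adjusted p of 0.389. Its partner Pola2 was at 15.6 and 14.4 CPM in PBS and at 8.98, 7.5, 9.26 and 13 CPM in IL-10/Fc, below PBS without overlap, with a log2 fold change of -0.63 (SE 0.27, 95% interval -1.29 to 0.03). Prim2 (chromosome 1, 33453810 to 33669795), the large primase subunit, was likewise below, at 46.2 and 42.4 CPM in PBS and at 24.6, 23.3, 36.9 and 25.2 CPM in IL-10/Fc, and its log2 fold change was -0.69 (SE 0.22, 95% interval -1.23 to -0.15) (edgeR's quasi-likelihood test, adjusted p = 0.309). Prim1, the catalytic primase subunit and the polymerase gene with the most reads, overlapped between groups at 75.9 and 96 CPM in PBS and at 66.2, 56.8, 108 and 82.6 CPM in IL-10/Fc. Without PBS replicate 2 the sign of Prim1 turned, to 0.05.

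Polymerases delta and epsilon copy the lagging and the leading strand. Pold2, an accessory subunit of delta, stood at 54.6 and 64.5 CPM in PBS and at 33.4, 37.1, 52.8 and 35.5 CPM in IL-10/Fc, with every IL-10/Fc library below PBS and replicate 3 the closest, and its log2 fold change was -0.58 (SE 0.22, 95% interval -1.11 to -0.06). Pold1, the catalytic subunit, was scarcer and more scattered, at 18.7 and 11.3 CPM in PBS and at 8.41, 4.46, 13.3 and 9.83 CPM in IL-10/Fc, and Pold3 was at 31.6 and 43 CPM in PBS and at 33.9, 22.6, 29.1 and 27.2 CPM in IL-10/Fc. Their log2 fold changes were -0.73 and -0.40, with overlap of the groups in both. For epsilon, the catalytic Pole was at 20.0 and 11 CPM in PBS and at 13.9, 12.7, 14.4 and 5.5 CPM in IL-10/Fc and its partner Pole2 at 10.5 and 15 CPM in PBS and at 16.6, 14.5, 17.4 and 9.32 CPM in IL-10/Fc. Neither separated the groups, and Pole2 was positive at 0.18.

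PCNA is the ring that holds polymerases on DNA, and RFC, of the large subunit Rfc1 and the small subunits Rfc2 to Rfc5, opens and closes it. Pcna stood at 265 and 350.2 CPM in PBS and at 304, 283, 358 and 292 CPM in IL-10/Fc, with a log2 fold change of 0.01 (SE 0.15, 95% interval -0.36 to 0.38). The IL-10/Fc values lay within the range of the PBS values except for replicate 3, and the sign of Pcna turned negative with library size scaling (-0.16). Among the loader's subunits Rfc1 (chromosome 5, 65261850 to 65335670) was the exception. It stood at 21.6 and 29.1 CPM in PBS and at 37.1, 34.5, 36.8 and 38.6 CPM in IL-10/Fc, above PBS in all 4 libraries with little spread among them, a log2 fold change of 0.54 (SE 0.18, 95% interval 0.11 to 0.96) (edgeR's quasi-likelihood test, adjusted p = 0.31). Rfc3 was at 87.4 and 80.2 CPM in PBS and at 58.7, 38.8, 73.5 and 62.6 CPM in IL-10/Fc, below PBS in all 4, with a log2 fold change of -0.52 (SE 0.25, 95% interval -1.12 to 0.07). The remaining small subunits overlapped between groups, with log2 fold changes of -0.20 for Rfc2, -0.28 for Rfc4 and -0.39 for Rfc5. Rfc5 was highest in PBS replicate 2, at 125 CPM, against 55.4 to 89.8 CPM in the other 5 libraries.

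Ratios of subunits within 1 library do not depend on how libraries are scaled to each other, and they were formed from levels per kilobase of exon (RPKM). Their absolute size depends on annotated exon lengths, which are the same for every library. The ratio of Pola1 to Pola2 was 0.581 and 1.43 in the PBS libraries, against 2.64, 3.96, 3.22 and 1.87 in the IL-10/Fc libraries. For Rfc1 over the mean of Rfc2 to Rfc5 it was 0.123 and 0.129 in the PBS libraries, against 0.295, 0.253, 0.17 and 0.23 in the IL-10/Fc libraries. In both cases every IL-10/Fc library exceeded both PBS libraries. For Pola1 over Pola2 this had to follow, since Pola1 lay above PBS and Pola2 below it, each without overlap. Rfc1 also lay above PBS without overlap by itself. Prim1 over Prim2 was 2.52 and 3.47 in the PBS libraries, against 4.13, 3.73, 4.51 and 5.03 in the IL-10/Fc libraries, again without overlap. By contrast Mcm6 over the mean of the other ring subunits was 4.46 and 3.59 in the PBS libraries, against 3.84, 5.45, 4.16 and 4.63 in the IL-10/Fc libraries, and the groups overlapped. So did geminin over its target, Gmnn over Cdt1, at 9.18 and 12.8 in the PBS libraries, against 7.87, 11.6, 13.5 and 19.7 in the IL-10/Fc libraries. The ratio of Orc1 to the mean of Orc2 to Orc5 also overlapped, at 0.121 and 0.248 in the PBS libraries, against 0.163, 0.127, 0.179 and 0.115 in the IL-10/Fc libraries. Of 7 ratios formed, 4 did not overlap, Rrm2 over Rrm1 (described with nucleotide supply) being the fourth. Each of the 4 holds at least 1 gene that separated the groups by itself (Pola1, Pola2, Rfc1, Rfc3, Prim2 or Rrm1). The 4 are therefore no separate evidence. The share of other gene pairs without overlap was not computed, and among single genes 11.5% lay below and 12.1% above without overlap. These pairs were formed with the members' values known and carry no test; with 2 libraries against 4 an exact permutation test has 15 splits and its smallest one-sided p is 0.0667.

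**Figure D4:**
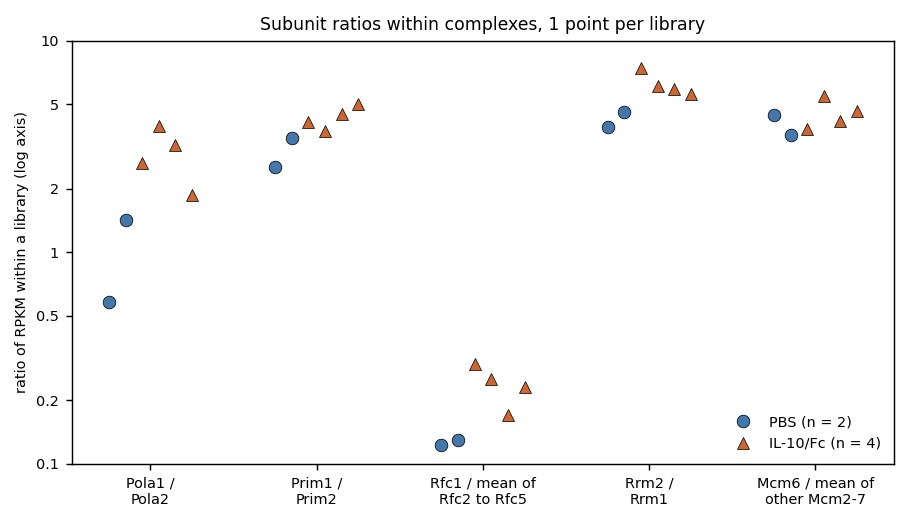
Ratio of RPKM within each library for 5 of the subunit pairs, on a log axis; circles are the 2 PBS libraries and triangles the 4 IL-10/Fc libraries, in replicate order from left to right. Triangles lie above circles for Pola1 over Pola2, Prim1 over Prim2, Rfc1 over its partners and Rrm2 over Rrm1, and mix with them for Mcm6.

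Replication protein A coats single-stranded DNA as a trimer of Rpa1, Rpa2 and Rpa3. Rpa1, the large DNA-binding subunit, stood at 86.5 and 76.9 CPM in PBS and at 42.1, 74, 56.4 and 51.2 CPM in IL-10/Fc, under PBS in all 4 libraries, with a log2 fold change of -0.55 (SE 0.23, 95% interval -1.09 to 0.00). The smaller subunits showed no such separation. Rpa2, the most abundant, was at 239 and 301 CPM in PBS and at 197, 336, 234 and 254 CPM in IL-10/Fc, and its replicate 2 was the highest of all 6 libraries. Rpa3 was at 22.6 and 40.0 CPM in PBS and at 27.4, 33, 47.8 and 33.6 CPM in IL-10/Fc, and its log2 fold change of 0.18 became -0.17 without PBS replicate 1.

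Fen1 trims the flaps of Okazaki fragments and Lig1 seals them. Both lay below PBS without overlap. Lig1 (chromosome 7, 13277283 to 13311433) stood at 74 and 85.5 CPM in PBS and at 42.9, 45.1, 47 and 72.1 CPM in IL-10/Fc, where replicate 4 came within 2 CPM of the lower PBS library and the other 3 lay together well under it. The log2 fold change of Lig1 was -0.62 (SE 0.24, 95% interval -1.2 to -0.05) (edgeR's quasi-likelihood test, adjusted p = 0.367). Fen1 was at 2.31 and 2.32 CPM in PBS and at 0.938, 1.5, 1.55 and 1.03 CPM in IL-10/Fc, only 28 to 71 counts per library, and its log2 fold change was -0.88 (SE 0.49, 95% interval -2.07 to 0.30). In the GENCODE M21 annotation 78.8% of Fen1's exon bases are shared with an antisense gene. The protocol does not mark strand, and the treatment of reads in shared exons was not given in the sources used here. The same limit touches Gins2 (67.3% shared with Gse1) and Chaf1a (52.5% shared with Ubxn6), and Fen1 and Chaf1a were also the members with the lowest levels per kilobase.

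The 5 genes of nucleotide supply had negative log2 fold changes, with a median of -0.20, and none passed. The median was -0.34 without PBS replicate 1, -0.32 without IL-10/Fc replicate 3 and -0.06 without IL-10/Fc replicate 1. Ribonucleotide reductase makes deoxynucleotides from a large subunit, Rrm1, and a small subunit, Rrm2. Rrm1 (chromosome 7, 102441695 to 102469771) stood at 154 and 176 CPM in PBS and at 64.2, 103, 135 and 114 CPM in IL-10/Fc, below PBS in every library, with replicate 1 the lowest by far. The log2 fold change of Rrm1 was -0.66 (SE 0.28, 95% interval -1.33 to 0.00) (edgeR's quasi-likelihood test, adjusted p = 0.393). Rrm2, whose transcript and protein are tied to S phase, was at 152 and 203 CPM in PBS and at 119.9, 159.8, 202 and 160.5 CPM in IL-10/Fc, and 3 of the 4 IL-10/Fc libraries exceeded PBS replicate 1. Per kilobase, the ratio of Rrm2 to Rrm1 was 3.92 and 4.58 in the PBS libraries, against 7.42, 6.14, 5.94 and 5.59 in the IL-10/Fc libraries, without overlap. Dut, which clears dUTP and had the most reads of all members, was at 272 and 557 CPM in PBS and at 334, 334, 386 and 335 CPM in IL-10/Fc. The PBS values bracketed all 4 IL-10/Fc libraries, so the sign of Dut turned with the PBS library left out, from -0.68 to 0.35. Tyms, the maker of thymidylate, was at 134 and 133 CPM in PBS and at 81, 93.2, 167 and 126 CPM in IL-10/Fc, and the salvage kinase Tk1 at 62.9 and 63.5 CPM in PBS and at 38.4, 51.6, 69.2 and 61.6 CPM in IL-10/Fc. For both, the PBS libraries were close together and IL-10/Fc spread on both sides of them. Tyms and Pcna have annotated processed copies (Tyms-ps, Pcna-ps1 and Pcna-ps2), so their counts are less certain.

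Chromatin assembly factor 1 puts new histones H3 and H4 on fresh DNA through its subunits Chaf1a and Chaf1b. Chaf1b (chromosome 16, 93883901 to 93906115) stood at 38.1 and 41.5 CPM in PBS and at 17.5, 26.9, 29.6 and 28.1 CPM in IL-10/Fc, below PBS in all 4 libraries and lowest in replicate 1. Its log2 fold change was -0.64 (SE 0.24, 95% interval -1.21 to -0.07) (edgeR's quasi-likelihood test, adjusted p = 0.353). Chaf1a was scarce, at 3.13 and 5.33 CPM in PBS and at 2.08, 2.62, 5.76 and 4.76 CPM in IL-10/Fc, and the groups overlapped in full. Timeless and Tipin form a complex that keeps forks intact, and claspin (Clspn) passes on the checkpoint signal. Timeless was at 24.6 and 10.1 CPM in PBS and at 5.73, 9.35, 13.6 and 10.9 CPM in IL-10/Fc, with PBS replicate 1 far above the other 5: without that library its log2 fold change went from -0.81 to -0.03. Tipin was far more abundant, at 122 and 225 CPM in PBS and at 104, 130.3, 207 and 164 CPM in IL-10/Fc, with overlap. Clspn was at 9.55 and 14.3 CPM in PBS and at 10.9, 9.0, 13.4 and 12.7 CPM in IL-10/Fc, with a log2 fold change of -0.05 (SE 0.28, 95% interval -0.73 to 0.62).

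Levels per kilobase spanned a wide range among members, and the order did not follow the roles. It depends on the annotated length of merged exons, which ran from 1136 bases for Rpa3 to 11160 for Pole. Dut led with 172 ± 83.6 RPKM in the PBS libraries (SD, n = 2) against 144 ± 10.6 RPKM in the IL-10/Fc libraries (SD, n = 4), then Pcna with 128 ± 25.1 RPKM in the PBS libraries (SD, n = 2) against 129 ± 14.1 RPKM in the IL-10/Fc libraries (SD, n = 4). Rpa2, Tipin, Gins4, Gmnn, Mcm6, Rrm2, Rfc4 and Rfc2 completed the first 10, and neighbours in this order differed by less than the spread between libraries for Rpa2 and Tipin (86.9 and 84.9 RPKM over all libraries). The initiator Orc1 (1.45 RPKM), the polymerase subunits Pola2 (1.38) and Pole (1.16), Mcm10 (0.908), Fen1 (0.664) and Chaf1a (0.446) closed it, in RPKM over all 6 libraries. Members that stood lower in IL-10/Fc without overlap were found along the whole order, from Mcm6 at rank 7 to Fen1 at rank 50.

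The surroundings of the machinery were read from 67 further genes of the pathway, of which 65 were measured (Recql4 and Atrip were not analysed here). Their median log2 fold change was -0.10, with 42 negative and 23 positive, and it was -0.18 without PBS replicate 1, -0.15 without IL-10/Fc replicate 4, -0.06 without PBS replicate 2 and -0.04 without IL-10/Fc replicate 1. Without overlap 9 (13.8%) lay below and 5 (7.69%) above, where 11.5% and 12.1% of all genes did. Of the 65, 0 passed edgeR's quasi-likelihood test after adjustment and 8 had an unadjusted p under 0.05, 4 lower (5.52% of all genes) and 4 higher (7.2% of all genes), so these shares were near the background. DESeq2 called 2 as lower and 2 as higher (1.51% and 3.22% of all genes), and limma-voom called 0. Thus the negative share was 64.6% here, 86.3% among the members and 50.7% over all genes, and the difference between these lists was not tested. The 13 regulators of the G1/S transition had a median of -0.12, the 19 replisome accessories -0.01, the 7 checkpoint genes -0.11, the 15 genes of nucleotide pools -0.04 and the 11 genes of chromatin at the fork -0.11.

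Of the 15 genes of nucleotide pools 4 (26.7%) lay below PBS without overlap and 2 (13.3%) above, where 11.5% and 12.1% of all genes did. Those below were the purine synthesis genes Impdh2, Gart and Paics and the pyrimidine synthesis gene Umps. Those above were Samhd1 and Nme1. Nme1 stood at 168 and 161 CPM in PBS and at 218, 186, 190 and 197 CPM in IL-10/Fc. Paics had a log2 fold change of -0.40 (SE 0.13, 95% interval -0.71 to -0.08), and it did not pass (edgeR's quasi-likelihood test, adjusted p = 0.309). Impdh2, the rate-limiting enzyme of guanine nucleotide synthesis, stood at 119 and 129.7 CPM in PBS and at 61.6, 70.6, 85.1 and 69 CPM in IL-10/Fc, and Gart, which catalyses several steps of the purine ring, at 38.2 and 39.4 CPM in PBS and at 21.5, 18.9, 25.6 and 18.5 CPM in IL-10/Fc. All IL-10/Fc libraries were well under PBS in both, with log2 fold changes of -0.80 (SE 0.15, 95% interval -1.16 to -0.44) and -0.88 (SE 0.19, 95% interval -1.33 to -0.43). Samhd1, which breaks down deoxynucleotides, went the other way at 118 and 145 CPM in PBS and at 207, 308, 173 and 268 CPM in IL-10/Fc, and so did Tonsl, a fork repair scaffold, at 346 and 413 CPM in PBS and at 531, 632, 529.6 and 571 CPM in IL-10/Fc. The authors' deposited table called these 4 genes, with adjusted p of 6.26e-04 for Impdh2, 0.00258 for Gart, 0.0283 for Samhd1 and 0.00467 for Tonsl. The DESeq2 refit called the same 4 genes, and by edgeR's quasi-likelihood test their adjusted p ran from 0.176 to 0.281. Impdh2 has an annotated processed copy (Impdh2-ps), as has Nasp (Nasp-ps1), so the counts of Impdh2 and Nasp are less certain. RNase H2, which removes ribonucleotides, was split: Rnaseh2b was at 116 ± 7.73 CPM in the PBS libraries (SD, n = 2) against 82.1 ± 11.6 CPM in the IL-10/Fc libraries (SD, n = 4) and Rnaseh2c at 40.6 ± 8.99 CPM in the PBS libraries (SD, n = 2) against 56.3 ± 3.45 CPM in the IL-10/Fc libraries (SD, n = 4), without overlap in either. Of Rnaseh2c's exon bases 24.8% are shared with the antisense gene Kat5, and of Gart's 19.7% with Gm15964. Tonsl shares 1.72% with Vps28, a gene on the same strand that is not among the counted genes. The deposited coordinates of Tonsl, Rnaseh2c, Cdk2 and Rad17 differ from GENCODE M21, so these shares may not hold for the gene models that were counted. Cdk2, the kinase that fires origins with cyclins E and A, was at 30.9 and 18.2 CPM in PBS and at 17.9, 17.6, 16 and 10.5 CPM in IL-10/Fc, and Cdc7, which phosphorylates the MCM ring, at 33.1 and 34 CPM in PBS and at 18.2, 34.5, 20.6 and 17.5 CPM in IL-10/Fc. In Cdk2 the nearer PBS library differed from the highest IL-10/Fc library by under 1 CPM, and in Cdc7 the groups overlapped. The checkpoint kinase Chek1 was at 9.87 ± 0.789 CPM in the PBS libraries (SD, n = 2) against 6.63 ± 1.82 CPM in the IL-10/Fc libraries (SD, n = 4), the clamp loader Rad17 at 32.2 ± 0.272 CPM in the PBS libraries (SD, n = 2) against 25.4 ± 6.49 CPM in the IL-10/Fc libraries (SD, n = 4) and the histone chaperone Nasp at 101 ± 17.5 CPM in the PBS libraries (SD, n = 2) against 86.5 ± 9.65 CPM in the IL-10/Fc libraries (SD, n = 4).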

How the data were processed

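RNA-seq by the Smart-Seq2 protocol was analysed for 6 libraries of 500 sorted cells each, 2 PBS and 4 IL-10/Fc. Per library the authors deposited integer read counts for each gene, together with a series table of identical counts (0 cells differed) and their own comparison. Per the submitters' processing notes the tools were Trimmomatic, TopHat2 2.1.1, Bowtie2 2.2.9, Cufflinks 2.2.1, Cuffdiff and DESeq2 on GRCm38 (mm10); the read counter was not given in the sources used here. Per the file headers the deposited series table also holds a log2 fold change with its error, a Wald statistic (a score), a p-value, an adjusted p-value and the mean normalized count (a signal) for each of 15898 genes. Other genes were not analysed here. File columns number the PBS libraries differently from the titles, and the titles were followed.

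Genes were filtered with filterByExpr (15477 kept, all 51 members among them), scaled by TMM and tested with edgeR 4.0.16 (glmQLFit with the robust option, glmQLFTest, group as the only term, two-sided), with Benjamini-Hochberg adjustment over all genes at 0.05. A standard error is the log2 fold change over the root of F. RPKM was formed from TMM-scaled CPM and merged exon length in GENCODE M21. Alternatives were DESeq2 1.42.0, limma-voom (limma 3.58.1), other scalings and filters, a block for replicate number, and leaving out each library in turn. Counts of negative members and of groups without overlap under these settings were added after seeing the data. Fits were tested on simulated data. Members and lists were chosen with earlier results of these data known. Members were given per-library values if they had the 2 smallest p or the highest level of their role, an absolute log2 fold change of 1 or more, one of the 3 largest positive values or a call in the authors' table, and neighbours if they had the 2 smallest p of their list. Other genes with values were chosen after those were seen. Floors cover counting error only.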

Additional observations from a re-analysis of the deposited data

Results flagged for a closer look

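In 4 members 1 IL-10/Fc library stood apart from the other 3, by a gap that took up a large share of the whole IL-10/Fc range (above Dixon's 95% critical value for 4 samples). The gap was 0.891 of the range for Mcm7, 0.863 for Prim2 and 0.976 for Dut, each with IL-10/Fc replicate 3 as the high library. For Lig1 it was 0.861, with replicate 4 high. Chance flags about 1 in 20 such groups, and 61 genes were examined (the 51 members and 10 named neighbours).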

How the results depend on the processing

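Among the fits run, a member passed in DESeq2 alone (1 member, Mcm5, log2 fold change -0.72), and of the neighbours 4 passed in DESeq2 and 0 in the others. The members' median log2 fold change of -0.37 was -0.53 with library size only, -0.51 with the replicate block, and ran from -0.42 to -0.18 with single libraries left out. The block leaves IL-10/Fc replicates 3 and 4 without a PBS library of the same number. Its group difference therefore rests on replicates 1 and 2 of each group. With the replicate block the median was -0.40 for helicase loading, -0.51 for nucleotide supply and -0.22 for the neighbours, and with library size only it was -0.27 for the neighbours. With single libraries left out, the median ran from -0.41 to 0.19 for the clamp and loader and from -0.38 to 0.27 for fork protection, both positive only without PBS replicate 2. It ran from -0.42 to -0.18 for origin recognition, -0.35 to -0.11 for helicase loading, -0.34 to -0.06 for nucleotide supply, -0.60 to -0.15 for chromatin assembly, -0.24 to 0.10 for single-strand binding and -0.18 to -0.04 for the neighbours. Members below without overlap then numbered 15 to 25, where 14.1% to 27% of all genes lay below, and those above 2 to 7, where 14.5% to 25.5% of all genes lay above. The 7 were without PBS replicate 2, the fit with 25.5%. Of the 30 members chosen by the naming rule, 8 changed sign when single libraries were left out. Prim1 ran from -0.33 to 0.0492, Pcna from -0.18 to 0.22, Rpa3 from -0.17 to 0.65, Rpa2 from -0.24 to 0.10, Dut from -0.68 to 0.35, Chaf1a from -0.49 to 0.28, Tipin from -0.57 to 0.32 and Gins1 from -0.35 to 1.59. For Pcna the value was also -0.16 with library size only, -0.0114 with at least 20 CPM in 2 libraries and -0.0547 with the replicate block. Among members outside the rule, Orc6, Cdc6, Mcm2, Mcm4, Pole, Pole2, Rfc2, Rfc5, Rrm2 and Clspn also changed sign with single libraries left out. The promoter share of 38.1% was 21.4% over the bases before the start alone, a shorter window. For the other shifts the cause was not tested. Replicate numbers are only shared between groups: deviations of same-numbered libraries correlated at 0.0625 and 0.0148 across genes. The replicate block called 0 members, but also 0 of all 15477 genes tested, so that count says nothing particular to the members. Where a PBS library was left out, the spread of the remaining one was taken from the IL-10/Fc libraries.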
